A study of Mus musculus with 18 samples.

Results

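The zinc finger protein genes of the mouse autosomes, those whose symbol is Zfp followed by a number, were followed through the loss of CpG methylation in embryonic stem cells. They were chosen by symbol among the protein-coding gene models of GENCODE vM1 on the NCBIM37 genome. The rule gave 336 gene models with 332 symbols, of 21417 autosomal protein-coding models in all. Another member lay within 100 kb of 181 of them, called clustered here, and the other 155 were called single. Chromosome 7 held 86 members, chromosome 17 held 39, chromosome 13 held 33, chromosome 8 held 26 and chromosome 9 held 20.

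Whole-genome bisulfite sequencing, which reads methylated and unmethylated cytosines as calls, was available for 18 libraries of embryonic stem cells. The labels gave 9 control libraries of wild-type genotype and 9 Dnmt1 KO libraries, in which the gene for the maintenance methyltransferase was deleted, at days 1, 3, 6, 9 and 11. Each genotype had 2 libraries at a time point, except day 6 with 1. All libraries were labelled as strain E14, but the study's methods described floxed Dnmt1 cells of strain C57BL/6 in which Cre recombinase was switched on with tamoxifen. The 2 sources thus differ on the line used. If control and Dnmt1 KO cells came from different lines, that difference could not be told apart from the deletion. Libraries held 7190722 to 11158414 calls, at 1.197 to 1.245 calls per autosomal cytosine listed, so calls were summed over regions and single CpGs were not compared. Between the start of exon 5 and the end of exon 4 of Dnmt1 (chromosome 9, 20744920 to 20746027), the 9 control libraries held 69 calls and the 7 Dnmt1 KO libraries of days 3 to 11 held 0. A count of 0 is compatible with up to 3 calls. The 2 Dnmt1 KO libraries of day 1 held 2 calls there.

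Zinc finger proteins of the C2H2 type bind DNA through an array of fingers, each of which reads a few bases, and neighbouring fingers are joined by a short conserved linker. Many of the mouse genes arose by repeated duplication in tandem, lie in clusters, and encode the whole finger array in their last exon. Those that also carry a KRAB domain recruit the corepressor TRIM28 and the histone methyltransferase SETDB1 to transposable elements and imprinted regions, and their genes are themselves covered by repressive chromatin in many cells. DNMT1 copies CpG methylation onto the new strand when DNA is replicated, so methylation is diluted by cell division when the enzyme is lost.

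The finger arrays could be read in the genome as repeats of the linker. On the coding strand of the last exon, 215 of the 336 members (64.0%) held at least 1 copy of the 15 letters ACNGGNGANAANCCN, a codon pattern of the linker amino acids TGEKP in which N is any base, against 0.897% of the last exons of the other genes. At least 5 copies were found in 138 members (41.1%) and in 0.470% of the others, and 0 members held the motif on the opposite strand. The linker was present in 85.1% of clustered and 39.4% of single members. The median last exon was 2186 bp long in members and 955 bp in other genes, and it held a median of 84.4% and 16.3% of the coding sequence respectively. Stretches of 3 members named below in the list drawn up for silencing are shown because they carry this repeat, with both linkers in capitals and their first bases 84 bases apart.
Zfp932 (chr5:110437919-110438017, + strand): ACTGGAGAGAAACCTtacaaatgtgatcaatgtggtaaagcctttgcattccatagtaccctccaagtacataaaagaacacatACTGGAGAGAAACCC
Zfp819 (chr7:50872767-50872865, + strand): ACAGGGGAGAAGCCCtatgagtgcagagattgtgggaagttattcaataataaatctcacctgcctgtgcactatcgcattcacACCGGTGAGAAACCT
Zfp90 (chr8:108948373-108948471, + strand): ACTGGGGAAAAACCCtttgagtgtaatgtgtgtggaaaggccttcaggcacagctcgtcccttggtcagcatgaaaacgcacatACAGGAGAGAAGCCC
The stretch from Zfp932 held 0 CpGs and those from Zfp819 and Zfp90 held 2 each, and all 3 are written along the coding strand.

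At the other end of the gene, the members differed widely in methylation just upstream of the annotated start. The 240 bases upstream of Zfp811, a member with a highly methylated promoter, and of 2 members without methylated control calls in their promoters, Zfp189 and Zfp553, are shown along the strand of the gene with the CpGs in capitals.
Zfp811 (chr17:32937884-32938123, - strand): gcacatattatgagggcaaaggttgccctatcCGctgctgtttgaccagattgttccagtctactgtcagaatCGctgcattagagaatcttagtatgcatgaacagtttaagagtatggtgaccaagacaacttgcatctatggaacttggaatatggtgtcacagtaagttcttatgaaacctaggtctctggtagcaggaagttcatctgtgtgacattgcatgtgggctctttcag
Zfp189 (chr4:49533808-49534047, + strand): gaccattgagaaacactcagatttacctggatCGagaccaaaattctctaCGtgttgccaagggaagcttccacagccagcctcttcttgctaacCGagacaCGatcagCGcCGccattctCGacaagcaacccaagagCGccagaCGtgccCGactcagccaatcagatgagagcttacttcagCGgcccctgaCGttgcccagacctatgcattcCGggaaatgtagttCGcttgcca
Zfp553 (chr7:134376335-134376574, + strand): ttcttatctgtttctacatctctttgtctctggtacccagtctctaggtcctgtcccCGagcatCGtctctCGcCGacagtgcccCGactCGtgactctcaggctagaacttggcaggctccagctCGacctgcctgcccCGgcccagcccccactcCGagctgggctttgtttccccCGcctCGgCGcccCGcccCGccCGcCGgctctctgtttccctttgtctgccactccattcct
These windows held 2, 14 and 16 CpGs in that order. In the control libraries together, 8 of 9 calls were methylated in the Zfp811 window, and in Dnmt1 KO at days 6 to 11, 1 of 3. The windows of Zfp189 and Zfp553 held 0 methylated calls of 83 and 73 in control and 0 of 27 and 35 in Dnmt1 KO. Gene starts are those of the annotation, and whether they are used as promoters in these cells was not tested. The model of Zfp811 spanned only 3533 bp, against a median of 14711 bp over members.

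The question was how far methylation was lost in each section of these genes once its maintenance stopped, and whether clustered and single genes differed. For each library, the level was taken as methylated calls in percent of the calls in a section, summed over all members, with the promoter taken as the 1 kb upstream of the gene start. Control promoters of the members had a level of 19.7% ± 2.32 (SD, n = 9 libraries), from 15.2% through a median of 19.9% to 22.4%. Their last exons stood at 70.9% ± 2.29 (67.2% to 74.3%) and the rest of the gene body at 67.6% ± 3.24 (62.0% to 71.8%). In all 3 sections the lowest control library was of day 11. The promoters were thus the section in which most calls were unmethylated in control cells.

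Methylation fell in every section. In Dnmt1 KO the promoters of the members stood at 17.4% and 17.6% at day 1, at 7.18% and 7.04% at day 3, and at 4.53% ± 0.52 (n = 5, 3.81% to 5.17%) over days 6 to 11. Last exons went from 65.2% at day 1 through 31.9% at day 3 to 22.9% ± 1.54 (20.9% to 25.2%), and the rest of the body from 63.4% through 31.2% to 22.9% ± 0.84 (22.0% to 24.04%). In each section every one of the 9 Dnmt1 KO libraries was lower than its same-day controls. Averaged over days, Dnmt1 KO minus control was -12.4 points for promoters, -38.3 for last exons and -35.4 for the rest of the body. Each difference had an exact permutation p of 0.00077, the smallest that permuting genotype within day can give, and a Benjamini-Hochberg adjusted p of 0.0020 over 13 tests (two-sided, 18 libraries). The labels call the libraries of a group biological replicates without naming separate cultures, so these p-values measure the spread between these libraries.

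**Figure D1:**
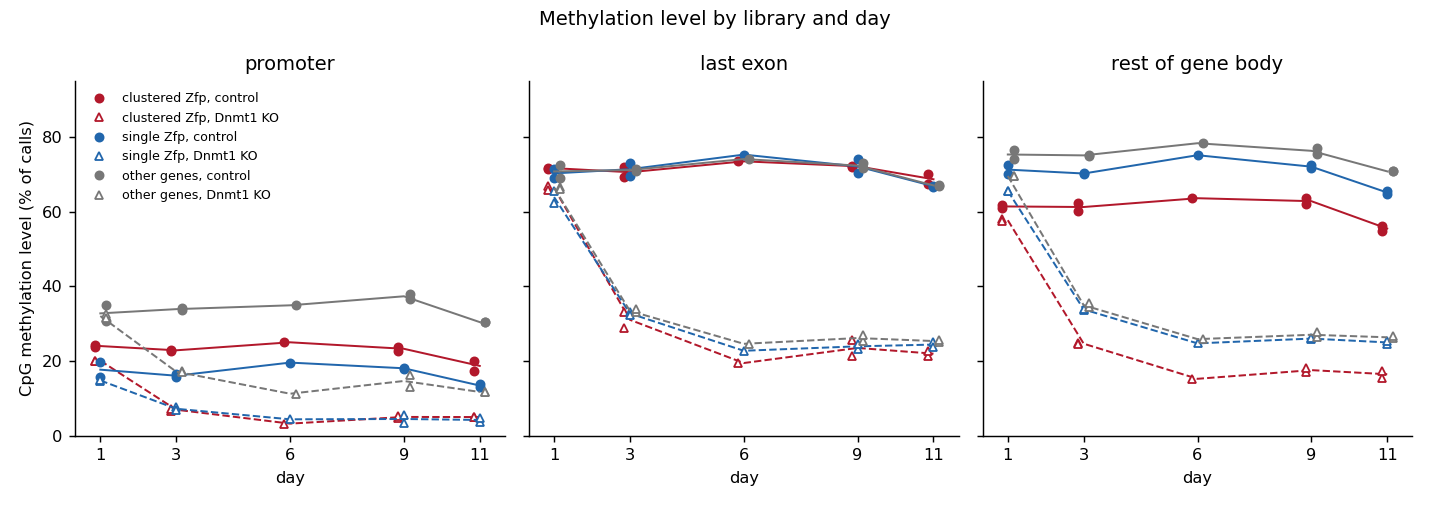
CpG methylation level (percent of calls) against day for clustered Zfp, single Zfp and all other autosomal protein-coding genes in the promoter, last exon and rest of the gene body; each point is 1 library and lines join the means of a day. In the rest of the gene body the clustered members lie lowest in both genotypes, whereas in the last exon the 3 classes overlap in control.

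Relative to control of the same day, Dnmt1 KO libraries of days 6 to 11 kept 24.1% ± 5.22 of the level in the members' promoters, 32.4% ± 2.81 in their last exons and 34.2% ± 2.30 in the rest of the body (n = 5). Compared with other genes, member promoters were less methylated, with a gap of -14.1 points in control (exact sign-flip adjusted p = 0.012, lower in 9 of 9 libraries) and -8.80 points in Dnmt1 KO of days 3 to 11 (adjusted p = 0.023, 7 of 7). The sign-flip tests, here and below, cover the spread between libraries of the same genes and not the spread between genes. Before adjustment these 2 were the smallest sign-flip p that 9 and 7 libraries can give, 0.0039 and 0.016. On a relative scale the gap widened, with a change of -0.56 in the log2 ratio of members to other genes (exact permutation adjusted p = 0.0020). With genes of at least 5 calls in every library counted equally, this change lost its call, at -0.45 (adjusted p = 0.14). That setting rested on 18 of the 336 member promoters, of 672 promoters in all. These sizes rested largely on cytosines with over 20 calls in a library, which held 14.1% to 30.5% of the promoter calls of other genes and 0 of the members' calls. Such cytosines had levels of 81.7% in control and 35.5% in Dnmt1 KO, and whether they lie in repeats was not tested. Without them the promoter gap was -3.18 points in control and the change of the log2 ratio was -0.28 (adjusted p = 0.0020), so the direction held at a smaller size. When these 18 member promoters and the others with enough calls counted equally, the control gap had the opposite sign, at 4.11 points (adjusted p = 0.031). The Dnmt1 KO gap was then 0.52 points (adjusted p = 0.73). With promoters of 1 kb on either side of the start the gaps were larger, at -39.1 points in control and -21.3 points in Dnmt1 KO (adjusted p = 0.012 and 0.023). This wider window was not run without the cytosines of over 20 calls, so their part in these gaps was not tested.

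In last exons the gap between members and other genes in control was 0.15 points (exact sign-flip p = 0.67, adjusted p = 0.73), and it depended on the setting, from -3.43 to 2.78 points, with a change of call or sign under 5 of 8 alternatives. In Dnmt1 KO of days 3 to 11 the gap was -2.34 points (adjusted p = 0.023, 7 of 7 libraries), and the log2 ratio changed by -0.13 (exact permutation adjusted p = 0.0033). Without the cytosines of over 20 calls, the gap in control was 2.51 points and passed the test (adjusted p = 0.0094), the gap in Dnmt1 KO was -0.26 points and no longer did (adjusted p = 0.63), and the log2 ratio changed by -0.07 (adjusted p = 0.020). In the rest of the body the members were lower, with gaps of -7.26 points in control and -3.66 points in Dnmt1 KO (adjusted p = 0.012 and 0.023). The log2 ratio of members to other bodies was below 0 in all 18 libraries, from -0.19 to -0.13 in control and from -0.25 to -0.14 in Dnmt1 KO of days 3 to 11. It changed by -0.04 (exact permutation adjusted p = 0.015), and the size of this change depended on the setting. It was 0.00047 without those cytosines (adjusted p = 0.96), 0.0055 without the first 2 kb of each gene (adjusted p = 0.38) and -0.25 among genes of up to 50 kb (adjusted p = 0.0033).

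The finger-encoding last exons could be checked in genes with other symbols. Last exons with at least 5 linkers stood at 78.5% ± 1.95 in control and 24.97% ± 1.66 in Dnmt1 KO of days 6 to 11 among members, and at 80.3% ± 4.57 and 25.2% ± 2.04 among 99 genes that were no members. They kept 32.1% ± 1.98 and 32.2% ± 2.71 of the control level, and other genes without a linker kept 36.3% ± 2.13. For the genes that were no members, the log2 ratio to other genes without a linker changed by -0.12 (exact permutation adjusted p = 0.015). It changed by -0.07 without the cytosines of over 20 calls (adjusted p = 0.10), and that call was thereby lost, as it was without the control library of day 11 replicate 2 (-0.11, adjusted p = 0.053). Last exons with 1 to 4 linkers kept 30.9% ± 4.802 in members and 30.02% ± 2.92 in other genes, and members with no linker kept 34.2% ± 3.87.

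Clustered and single genes differed in the rest of the gene body. Clustered members had a control level of 60.6% ± 3.13 (n = 9, 54.9% to 63.7%) and single members 70.3% ± 3.32 (64.8% to 75.1%), and clustered members were lower in all 9 libraries, with a mean gap of -9.66 points (exact sign-flip adjusted p = 0.012). In Dnmt1 KO of days 6 to 11 clustered members stood at 16.7% ± 1.27 (n = 5, 15.3% to 18.2%) and single members at 25.4% ± 0.67 (24.7% to 26.2%). The ranges of the 2 classes did not overlap there or in control. Clustered members kept 27.9% ± 2.74 of the control level and single members 36.4% ± 2.27.

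The log2 ratio of clustered to single members in the rest of the body was -0.23 and -0.20 in control of day 1, -0.17 and -0.22 at day 3, -0.24 at day 6, -0.19 and -0.21 at day 9, and -0.22 and -0.24 at day 11. In Dnmt1 KO it was -0.18 and -0.19 at day 1, -0.44 and -0.47 at day 3, -0.70 at day 6, -0.61 and -0.53 at day 9, and -0.67 and -0.54 at day 11. The 7 Dnmt1 KO libraries of days 3 to 11 lay below all 9 control libraries, and those of day 1 lay among them. The mean difference of Dnmt1 KO from control over the days was -0.29 (adjusted p = 0.0075, exact permutation p = 0.0046). The change kept its direction and its call in each of 18 fits that left out 1 library, between -0.30 and -0.24 (adjusted p = 0.0063 to 0.015). The classes differed in gene length. Members over 50 kb, of which 27 were single and 2 clustered, held 68.9% of the calls of single and 6.03% of those of clustered bodies. Among members of up to 50 kb the control levels were 60.1% ± 3.14 for clustered and 59.4% ± 3.40 for single genes, so the control gap was no longer seen. In Dnmt1 KO of days 6 to 11 these genes stood at 16.6% ± 1.23 and 18.8% ± 1.09, closer together than over all members. The retained levels were 27.9% ± 2.76 and 32.0% ± 2.26 and the change of the log2 ratio was -0.15 (adjusted p = 0.015), so the change kept its call at a smaller size. Without the first 2 kb of each gene the control gap was -1.12 points and the change of the log2 ratio was -0.28. With genes of at least 5 calls in every library counted equally, these were 1.12 points and -0.16. The part of gene length and of distance from the start in these differences was not tested.

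Density of CpGs was considered as well, since sparse and dense CpGs lose methylation to different extents. At CpGs with under 10 CpGs in the surrounding 250 bp on either side, clustered bodies stood at 77.2% ± 3.19 in control and 20.6% ± 1.03 in Dnmt1 KO of days 6 to 11, and single bodies at 79.8% ± 3.08 and 28.2% ± 0.43. They kept 27.1% ± 2.29 and 35.7% ± 2.33 of control respectively, and other genes 33.2% ± 1.90. At dense CpGs, those with at least 25 in that window, levels were low in control already, at 1.49% ± 0.42 and 4.85% ± 0.75, and the shares kept were 63.1% ± 27.7 in clustered and 51.1% ± 24.4 in single bodies, too spread to order the classes. With the classes weighted to the same CpG density, the change of the log2 ratio was -0.30. Gene length was not held alike in these density splits. Over all densities, bodies of genes up to 50 kb kept 27.9% ± 2.76 in clustered members, 32.0% ± 2.26 in single members and 37.6% ± 2.04 in other genes. Calls per CpG and library were 0.469 in clustered and 0.444 in single bodies. Between the genes inside clusters, the level was 71.7% ± 2.96 in control and 18.7% ± 0.98 in Dnmt1 KO, against 78.6% ± 2.53 and 23.2% ± 0.35 between genes elsewhere. The retained shares were 26.3% ± 2.08 and 29.7% ± 1.28, and this difference was not tested.

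**Figure D2:**
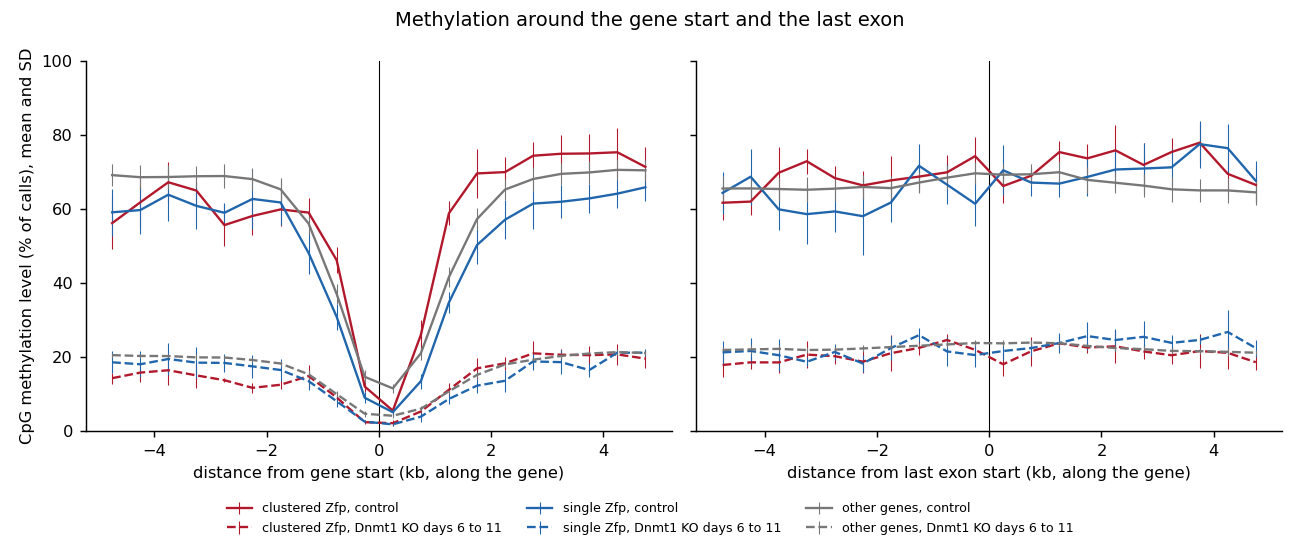
CpG methylation level (percent of calls, without cytosines over 20 calls) in 500 bp bins by distance in kb from the gene start and from the start of the last exon, for clustered Zfp, single Zfp and other genes; lines are means and bars SDs over 9 control libraries and 5 Dnmt1 KO libraries of days 6 to 11. Levels dip at the gene start in all classes, and from 0.5 to 5 kb into the gene the clustered control line lies above the single line.

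Around the gene start, the level at the first bin upstream (centred at 250 bp) was 12.0% ± 1.56 in clustered and 9.01% ± 1.52 in single members in control, and 2.41% ± 0.59 and 2.55% ± 0.47 in Dnmt1 KO of days 6 to 11. In the bin centred 2250 bp into the gene, clustered members stood at 70.0% ± 4.06 and single members at 57.1% ± 5.31 in control, and at 18.3% ± 1.79 and 13.6% ± 2.99 in Dnmt1 KO. At 4750 bp the control levels were 71.4% ± 5.27 and 65.9% ± 3.65, and the Dnmt1 KO levels 19.6% ± 2.44 and 21.2% ± 0.92. Near the start, clustered bodies were therefore not the lower ones in control, in contrast to the bodies as a whole. At 2250 bp they were not the lower ones in Dnmt1 KO either.

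The clusters were then taken singly. The rule of at least 5 symbols gave 13 clusters with 99 symbols, of which the largest were Zfp712 to Zfp748 on chromosome 13 (67139530 to 67654065) and Zfp84 to Zfp146 on chromosome 7 (30553571 to 30954746), with 14 symbols each. The rest of the gene bodies kept between 20.8% and 35.8% of control, and all 13 clusters lay below the 36.4% of single members. Long single genes carried most of that value, and against the 32.0% of single members of up to 50 kb, 9 clusters lay below and 4 above. In last exons 11 of 13 clusters lay below single members (33.9%), and in promoters 8 of 13 (27.1%). Within a cluster the SD over libraries reached 15.7 in last exons and 38.9 in promoters, so the side of some clusters is uncertain. No test was run over clusters, which share the libraries.

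The cluster from Zfp712 to Zfp748 kept least, at 20.8% ± 2.88, from 63.3% ± 4.51 in control to 12.9% ± 1.29 in Dnmt1 KO of days 6 to 11. It was followed by Zfp677 to Zfp948 on chromosome 17 (21520712 to 21725664), at 23.3% ± 4.86, and by its neighbour Zfp760 to Zfp947 (21844708 to 22303157), at 23.4% ± 5.61. The cluster from Zfp180 to Zfp94 on chromosome 7 (24866943 to 25101685) kept most, at 35.8% ± 4.68. In 2 clusters on chromosome 7 bodies were little methylated in control already, at 35.5% ± 5.30 for Zfp628 to Zfp580 (4866819 to 5005324) and 30.5% ± 9.50 for Zfp553 to Zfp689 (134376575 to 134592672), while the other 11 ranged from 53.0% to 69.4%.

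**Figure D3:**
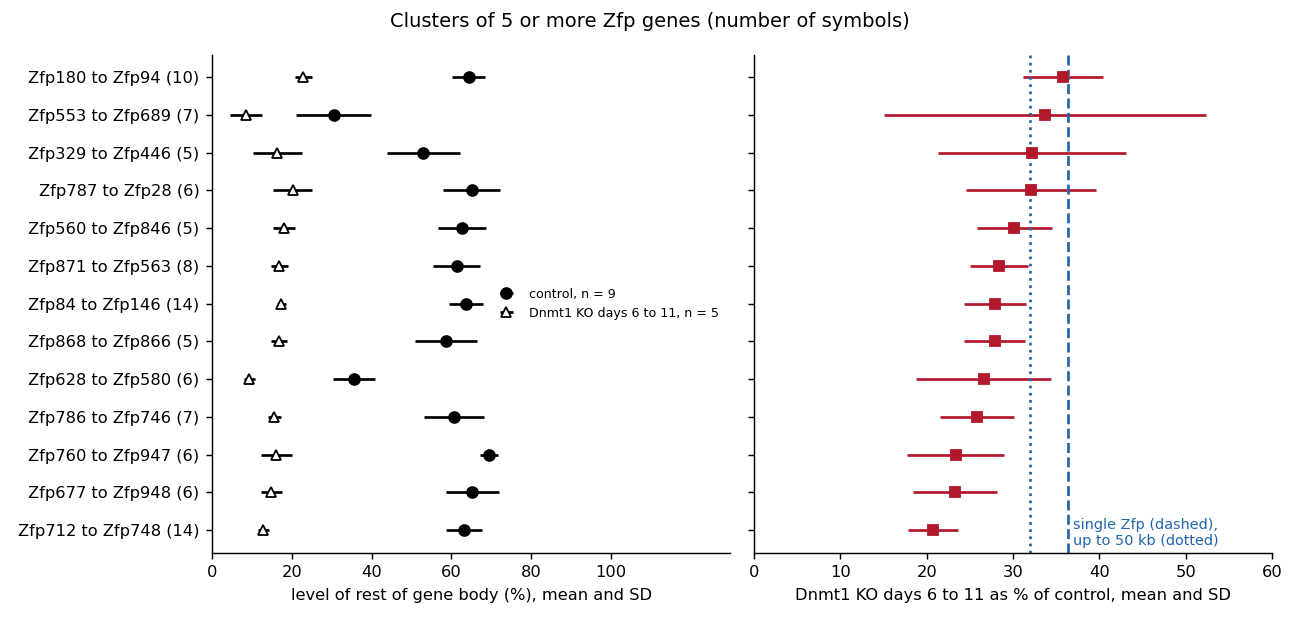
Level of the rest of the gene body (left, percent of calls) and the Dnmt1 KO level as percent of control of the same day (right) for 13 clusters named by their first and last gene; circles are means of 9 control libraries, triangles and squares means over 5 Dnmt1 KO libraries of days 6 to 11, and bars SDs. All clusters lie to the left of the dashed line of single members at 36.4%, and 4 of the 13 lie to the right of the dotted line of single members of up to 50 kb at 32.0%.

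In promoters the order of the classes was the other way round. Clustered promoters stood at 22.5% ± 2.40 and single promoters at 16.7% ± 2.37 in control, a gap of 5.85 points that was present in all 9 libraries (exact sign-flip adjusted p = 0.012). In Dnmt1 KO of days 3 to 11 the gap was 0.14 points (p = 0.75, n = 7, exact). The log2 ratio changed by -0.35 (exact permutation adjusted p = 0.038), but 12 of the 18 fits without 1 library lost the call, at values from -0.42 to -0.24. With CpG density weighted alike, the control gap was -0.13 points (adjusted p = 0.84). Dense CpGs were present in 48.6% of clustered and 63.2% of single promoters. In last exons the change of the clustered to single ratio was -0.09 (exact permutation p = 0.091) and no gap passed the threshold in either genotype. Some other settings gave these last exon results a call, as listed in the closing part.

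Promoters of individual members were spread widely, and so were those of other genes. With at least 50 control and 30 Dnmt1 KO calls, the control quartiles were 3.85%, 12.8% and 30.9% in 224 members. In 11351 other genes they were 3.21%, 12.5% and 31.2%. At least 100 calls in the 18 libraries were available for 256 of 336 promoters, of which 100 had a control level under 10% and 29 over 50%. Dense CpGs marked 88 of the 100 and 9 of the 29. Over the members with a dense promoter the control level was 12.3% ± 1.56 and the Dnmt1 KO level of days 6 to 11 was 2.74% ± 0.50, and over those without dense CpGs 42.7% ± 4.59 and 9.82% ± 1.54. Promoters were thus low in control mostly where CpGs were dense. Other genes had the same order, with control day means of 10.4% to 13.0% over dense promoters and 69.6% to 74.4% over those without dense CpGs. Promoters without dense CpGs were thus less methylated in members, and kept 24.6% ± 6.19 of control against 38.3% ± 1.56 in other genes. Dense promoters kept 23.2% ± 6.16 and 25.8% ± 3.71. These values include the cytosines with over 20 calls, and the differences were not tested.

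Of the promoters with enough calls, 5 held 0 methylated calls in control. These were Zfp516 (239 calls), Zfp189 (229), Zfp553 (221), Zfp943 (187) and Zfp597 (103), for which 0 calls gave exact upper limits of 1.53% to 3.52%. In Dnmt1 KO they stood at 0% at day 3 and at 0% to 1.15% at days 6 to 11. At day 1 of Dnmt1 KO, Zfp943 was at 11.11% over 45 calls (95% exact interval 3.71% to 24.1%) and Zfp516 at 2.08% over 48, while the other 3 were at 0%. The most methylated were Zfp811 at 97.5% (40 calls, 95% exact interval 86.8% to 99.9%), Zfp869 at 90.9% (132 calls), Zfp930 at 90.0% (50 calls), Zfp108 at 86.6% (82 calls) and Zfp870 at 86.4% (59 calls). Their levels in Dnmt1 KO of days 6 to 11 were 27.6%, 17.5%, 39.7%, 5.56% and 33.3% in that order, with wide intervals, such as 12.7% to 47.2% for Zfp811 over 29 calls. The models of these 5 genes spanned only 2638 to 4393 bp, against a median of 14711 bp over members. Intervals here and below cover counting error only, since neighbouring calls can share a read or an amplified molecule.

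Each region with at least 5 calls in every library was then tested by itself, in a quasi-binomial fit over all genes. A region was called lower in Dnmt1 KO of days 3 to 11 at an adjusted p under 0.05 and a fall of at least 10 points. In the rest of the body 288 of 291 tested members (99.0%) were called, against 98% of all 16095 genes tested. In last exons 130 of 132 members (98.5%) were called against 95.8% of 2876, and in promoters 5 of 18 (27.8%) against 17.6% of 672, with 10 at an unadjusted p under 0.05. The shares in bodies and last exons were close to those over all genes, and the promoter share rested on few members. In all 3 sections 0 members were called higher, and the members not tested had too few calls in at least 1 library. Reads that match near-identical copies equally well are not placed by unique alignment, and the part of this in the calls of duplicated members was not tested. The median difference of tested members was -43.6 points in bodies, -52.5 in last exons and -7.83 in promoters, against -45.6, -48.8 and -4.06 over all tested genes.

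The promoters called were those of Zfp869 (-69.1 points ± 6.45 SE, quasi-binomial adjusted p = 2.57e-05), Zfp90 (-42.4 ± 11.23), Zfp81 (-19.7 ± 5.24), Zfp933 (-19.5 ± 5.26) and Zfp74 (-15.4 ± 3.33). Zfp90 stood at 61.1% in control (167 calls) and 9.26% in Dnmt1 KO of days 6 to 11 (54 calls). The number called depended on the test, with 1 by limma on the percents, 3 by edgeR and 2 with the replicate number as a block. The bodies not called were those of Zfp161, Zfp319 and Zfp503, at 20.5%, 7.83% and 2.14% in control. The last exons not called were those of Zfp503 and Zfp553, at 6.02% and 37.3%.

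**Figure D4:**
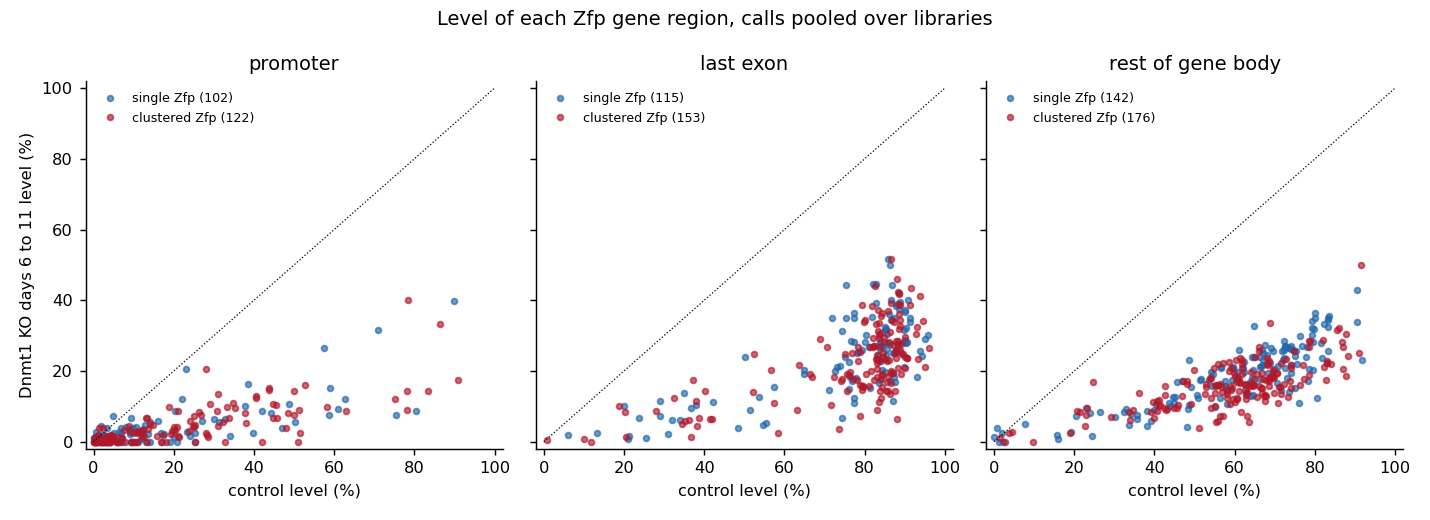
Level of each member in Dnmt1 KO of days 6 to 11 against its level in control (percent of calls, pooled over libraries) for regions with at least 50 control and 30 Dnmt1 KO calls; the dotted line marks equal levels. Nearly all points lie below the line, and in the rest of the body the clustered members (median 16.0% in Dnmt1 KO) lie lower than the single ones (median 19.5%).

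Among members with at least 50 control and 30 Dnmt1 KO calls, the median body went from 61.8% to 16.0% in 176 clustered genes and from 64.6% to 19.5% in 142 single genes, while 17185 other genes went from 71.5% to 21.3%. To find regions that kept more or less than others, the late level (4 Dnmt1 KO libraries, days 9 and 11) was set against the mean of all regions with a like level at day 1 of Dnmt1 KO. Regions were called at a limma adjusted p under 0.05 and at least 20 points. In the rest of the body 1 of 212 members exceeded this background, against 0.123% of 13039 genes, and 1 fell short of it, against 0.199%. In last exons 0 of 111 were called in either direction (0% of 2473 genes), with 17 at an unadjusted p under 0.05, against 399 of the 2473. In promoters only 2 members could be tested (0 called, 0% of 46 genes). On simulated data with 30 points of extra methylation this test recovered 184 of 199 bodies and 131 of 200 last exons. It recovered 0 of 29 promoters, but these were all the promoters of high control level in the simulation. Their background thus largely carried the extra methylation too. Recovery in promoters was therefore not measured, and promoters could not be judged. The test also made 1 false call in bodies and 9 in last exons. In the simulation all unchanged regions kept the same share of their start, and counts varied less than in the real bodies and last exons. Recovery in these 2 sections may therefore be overstated.

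Among the 212 tested members, the body furthest above the background, in points, was Zfp445 (ENSMUSG00000047036.7, chromosome 9, 122761032 to 122771246), a zinc finger protein known for keeping imprinted regions methylated. Its level in control ranged from 87.0% to 97.6% over 9 libraries of 23 to 62 calls. In Dnmt1 KO it was 93.3% and 82.1% at day 1, 46.8% and 26.7% at day 3, 38.9% at day 6, 53.7% and 64.1% at day 9, and 46.9% and 50% at day 11. All Dnmt1 KO libraries from day 3 on lay below control, and those of days 9 and 11 above that of day 6. The excess over background was 24.7 points ± 3.01 (SE, n = 4, limma adjusted p = 0.022), and 10.2 points at day 6, which the test did not use. With any of the 4 libraries left out the call was lost (adjusted p = 0.067 to 0.085), at differences of 21.3 to 27.0 points.

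The tested body furthest below the background, in points, was Zfp735 (chromosome 11, 73502280 to 73527300). It stood at 71.7% to 95.2% in control and, in Dnmt1 KO, at 81.0% and 78.1% at day 1, 28.9% and 45.3% at day 3, 22.2% at day 6, 11.4% and 0% at day 9, and 11.11% and 7.41% at day 11. The difference from background was -21.0 points ± 2.49 (SE, limma adjusted p = 0.022). With any of the 4 libraries left out this call was lost too (adjusted p = 0.067 to 0.085), at differences of -22.4 to -18.4 points, and 0 of all 13039 bodies were called in either direction. The 0% rested on 23 calls, for which a count of 0 is compatible with up to 3. Next to it came Zfp712 (-17.9 points), Zfp616 (-17.2), Zfp296 (-16.7) and Zfp960 (-15.5), and next to Zfp445 came Zfp335 (15.4), Zfp317 (12.2), Zfp37 (12.2) and Zfp488 (11.4). All 8 were under the 20 points of a call, although Zfp335, Zfp712, Zfp616 and Zfp296 had a limma adjusted p of 0.022. Zfp712 is the first gene of the cluster that kept least, and its own calls are part of that cluster's level. The starting level of Zfp296 rested on 1 of 7 and 24 of 39 calls in the 2 day 1 libraries of Dnmt1 KO, and its control level was 24.5%. In last exons the highest were Zfp286 (21.9 points), Zfp618 (20.7), Zfp516 (15.5), Zfp600 (14.8) and Zfp551 (14.7), and the lowest Zfp747 (-22.1), Zfp52 (-20.0), Zfp629 (-18.5), Zfp35 (-18.2) and Zfp952 (-17.7), each with a limma adjusted p of at least 0.14.

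Over the bodies tested, the median excess was -1.44 points in 212 members and 0.41 over all genes, and 61.3% of members lay below the background against 46.9% of all. At day 6, which did not enter the test, the medians were -2.74 and 0.17, and at day 3 they were -0.25 and 0.27. In last exons the medians were -2.40 and -0.48 points, and 55.9% of members lay below the background against 51.7% of all genes. These are counts and medians over genes that share libraries and neighbourhoods, so no p is attached to them.

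Among members with known roles, a list drawn up for silencing of repeats and imprints came first, and the role of each gene in it was not tested. All 7 of this list (Zfp57, Zfp568, Zfp809, Zfp708, Zfp932, Zfp819 and Zfp90) were called lower in the rest of the body, as were 98% of all bodies tested. Zfp445, described above, was not on the list. The body of Zfp568, a repressor of a placental Igf2 transcript, went from 70.6% in control (61.4% to 77.5% over 9 libraries) to 19.4% in Dnmt1 KO of days 6 to 11. That of Zfp809, which binds retroviral primer binding sites, went from 71.4% to 22.4%. Zfp932 and Zfp819, repressors of endogenous retroviruses, went from 58.6% to 22.6% and from 61.9% to 23.0%, and Zfp90 went from 55.9% to 16.1%. The 2 models of Zfp708 on chromosome 13 went from 63.8% to 15.7% and from 60.05% to 11.11%. In this list the last exons of Zfp568, Zfp819 and Zfp708 could be tested, and all 3 were called, against 95.8% of all last exons tested, with 83.7%, 87.9% and 84.1% in control and 30.1%, 28.4% and 17.9% in Dnmt1 KO.

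Zfp57, which holds methylation at imprinted regions, stood apart from that list. Its body (chromosome 17, 37138108 to 37147580) was at 23.8% in control, with libraries from 9.76% to 55.1%, and at 8.04% in Dnmt1 KO of days 6 to 11, a difference of -18.1 points ± 4.65 over days 3 to 11 (quasi-binomial adjusted p = 0.00086). Its promoter was at 78.3% over 60 control calls and at 55.6% over 18 Dnmt1 KO calls, with an exact interval from 30.8% to 78.5%. At this depth a loss at that promoter could not be judged. Promoters in this list ranged in control from 0.629% for Zfp568 and 1.01% for Zfp809 through 15.7% for Zfp932, 34.9% for Zfp819 and 61.1% for Zfp90 to 83.3% and 78.2% for the 2 models of Zfp708.

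Regulators of pluripotency and general transcription factors formed the next list, of which 6 of 7 bodies were tested and all 6 called, against 98% of all bodies. The body of Zfp296, a partner of pluripotency factors, went from 24.5% to 1.71%, and that of Zfp217 from 50.5% to 13.2%. Zfp143, Zfp148, Zfp207 and Zfp462 went from 62.3%, 72.4%, 64.7% and 75.3% to 19.6%, 23.8%, 16.3% and 25.7%. Zfp281, a regulator of pluripotent cells, was too thinly covered outside its last exon, which went from 36.8% to 9.52%. Promoters of Zfp143, Zfp148, Zfp207 and Zfp281 stood at 0.593%, 0.588%, 4.13% and 5.91% in control, whereas that of Zfp217 stood at 80.5% and had too few calls for a test.

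Of the genes with roles in development, 4 of 5 tested bodies were called, against 98% of all bodies. Zfp536, Zfp423 and Zfp521, which act in neuronal differentiation and, for Zfp423, in fat cell commitment, lie in long genes and were among the more deeply covered members. Zfp536 went from 79.2% over 19995 calls (74.3% to 82.3% in 9 libraries) to 30.1% over 10161 calls, Zfp423 from 72.6% to 26.7% and Zfp521 from 79.8% to 32.0%. Zfp335 went from 64.7% to 32.7%. By contrast, the bodies of Zfp503 and Zfp703, a pair of related developmental regulators, were at 2.14% and 1.15% in control and 0% in Dnmt1 KO, with 273 and 78 calls there. Zfp36, an RNA-binding protein with another type of finger, was at 21.0% in its last exon in control and 0.794% in Dnmt1 KO. Over all 22 symbols with named roles, 17 of 18 tested bodies, 7 of 8 last exons and 1 of 2 promoters were called lower, against 98%, 95.8% and 17.6% over all genes.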

How the data were processed

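Whole-genome bisulfite sequencing libraries of 9 control and 9 Dnmt1 KO samples were used. Per the labels and the study's methods, the authors trimmed reads, aligned them to NCBIM37 with Bismark (0.12.3 in the submitters' processing notes), removed duplicates and deposited, per cytosine and strand, counts of methylated and unmethylated calls. The deposited percent equalled the methylated share of those counts and was not used further. Counts were summed per library over the promoter (1000 bp upstream), last exon and rest of the body of autosomal protein-coding GENCODE vM1 genes, as annotated on NCBIM37. Depth was 7190722 to 11158414 calls per library, and single CpGs carried too few calls to be compared.

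Class levels were compared by exact permutation of genotype within day (2592 arrangements) and gaps between classes by exact sign flips over libraries, two-sided, with Benjamini-Hochberg adjustment over 13 and 12 tests. Genes that had 5 or more calls in each library were fitted with a quasi-binomial model whose dispersions were moderated with limma 3.58.1 (R 4.3.3), and the retained excess with limma; edgeR 4.0.16 was an alternative. Sums used Python 3.11.15, numpy 2.4.6, pandas 2.3.3 and scipy 1.17.1, and figures matplotlib 3.10.9. The fits were tested on simulated counts. Differences between replicates were nearly uncorrelated between the genotypes over regions (correlations -0.0761 to 0.0462). With few calls per region this could not exclude that same-numbered libraries were paired.

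A gene left out by the selection rule is not reported here. Members and lists were chosen with earlier results of these data known. Named were all clusters of at least 5 symbols, the 5 highest and 5 lowest control promoters with at least 100 calls, the 5 highest and lowest in retained excess, and a list by role. Alternatives are given in the closing part; the first 2 kb left out, density weighting, capped profiles and levels, and genes up to 50 kb were chosen after seeing the data.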

Additional observations from a re-analysis of the deposited data

Results flagged for a closer look

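In 2 of the comparisons all Dnmt1 KO libraries of day 1 lay on 1 side of their controls and all those of days 3, 9 and 11 on the other, and in neither was the difference between days tested. Other ratios whose mean changed sign after day 1 had overlapping libraries at day 1. Zfp minus other genes in promoters, Dnmt1 KO minus control, was -2.66 points at day 1 but 4.24 points at day 3, 6.64 at day 9 and 7.28 at day 11. Over the days its mean was 4.11 points. It became -2.93 with genes of at least 5 calls in every library counted equally (18 member promoters). Without cytosines over 20 calls it was 0.50, with its call lost. The log2 ratio of clustered to single Zfp genes in the rest of the gene body, Dnmt1 KO minus control, was 0.031 at day 1 and -0.26, -0.37 and -0.37 at days 3, 9 and 11. Each day held 2 libraries per genotype, except day 6 with 1, so no single library could be checked against its group.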

How the results depend on the processing

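Apart from the fits without 1 library, 242 values under other settings kept their direction and side of the threshold or stayed within the margin of a count, 7 counts moved, 8 results gained and 14 lost their call, and 11 changed sign. The cause of these changes was not tested. The fall of Zfp levels in Dnmt1 KO and the change of the clustered to single ratio in the rest of the body kept their call under every alternative run, the latter between -0.36 and -0.15.

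The clustered to single log2 ratio in promoters lost its call with promoters of 1 kb on either side (-0.24), a distance of 50 kb (-0.31), without cytosines over 20 calls (-0.35), with cytosines of 2 or more calls (-0.64) and without day 6 (-0.24). In last exons it gained one at 200 kb (-0.11) and without chromosome 7 (-0.16). The Zfp to other ratio in the rest of the body lost its call with CpGs of 1 gene only (-0.027) and changed sign without the first 2 kb (0.0055) and without cytosines over 20 calls (0.00047). Without those cytosines, the change in promoter points (0.50), the zinc finger last exons of other symbols (-0.067) and the last exon gap in Dnmt1 KO (-0.26) lost their call, and the last exon gap to other genes in control gained one (2.51).

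Counting genes equally took only those with at least 5 calls in every library, among members 18 promoters, 132 last exons and 291 bodies. In this setting the Zfp minus other promoter change was -2.93 points, its control gap 4.11 and its Dnmt1 KO gap 0.52, all of opposite sign. The promoter log2 ratio (-0.45), zinc finger last exons of other symbols (-0.095), last exon gap in Dnmt1 KO (-0.95) and clustered minus single promoter gap in control (1.21) lost their call. The last exon gaps in control, to other genes (2.65) and clustered minus single (4.87), gained one, and the clustered minus single body gap in control changed sign (1.12), as it did for genes up to 50 kb (0.73). The mean of gene levels gave no clustered to single promoter ratio, since it was 0 for single promoters in 1 library. The last exon gap to other genes in control was -1.39 with CpGs of 1 gene only, -3.43 with cytosines of 2 or more calls and 2.78 with density weighting. Clustered minus single in last exons was -2.87 in Dnmt1 KO at 200 kb and 2.50 in control without chromosome 7. In promoters it was 4.40 in control with cytosines of 2 or more calls, and -0.13 in control and -1.69 in Dnmt1 KO with density weighting.

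Of 18 promoters, 1 was called lower by limma on the percent, 3 by edgeR and 2 with the replicate block, against 12.4%, 17.4% and 9.97% of all promoters tested. The number was 0 at 10 calls or more (0 tested) and 47 of 104 at 1 call or more (39.5% of all). Last exons numbered 52 of 54 and 233 of 237 at those minimums (95.2% and 95.3% of all). With the replicate block 131 last exons and 289 bodies were called, against 130 and 288 in the main fit. The block changed no call in the tests of levels and ratios. Without 1 library at a time, the clustered to single ratio ranged from -0.42 to -0.24 in promoters and -0.11 to -0.065 in last exons, with a call gained without Dnmt1 KO day 3 or day 9 replicate 2 (adjusted p = 0.032 and 0.042), the zinc finger last exons of other symbols from -0.15 to -0.092, with the call lost without control day 11 replicate 2 (adjusted p = 0.053), promoters called from 2 to 6, and bodies above or below the retained background were 0 in all 4 fits (those below chosen after seeing the data). Depth limited promoters most, of which 18 of 336 could be tested.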

Other observations

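The genes for 8 partners of the zinc finger repressors, which are no members, all had bodies called lower in Dnmt1 KO of days 3 to 11, as did 98% of all genes tested. Setdb1, a histone methyltransferase, stood at 73.7% in control and 28.3% in Dnmt1 KO of days 6 to 11, and Atf7ip, its cofactor, at 69.9% and 25.9%. The bodies of Trim28, the corepressor bound by KRAB domains, and of Daxx, a histone H3.3 chaperone, were little methylated in control, at 31.8% and 26.3%, and reached 4.65% and 1.74%. The heterochromatin protein genes Cbx1, Cbx3 and Cbx5 went from 39.0%, 42.6% and 60.9% to 11.8%, 15.1% and 17.9%, and H3f3a, which encodes H3.3, from 36.5% to 8.87%. The last exons of Atf7ip and Cbx5 had enough calls for the test, and both were called, at 86.5% and 78.5% in control and 27.3% and 19.2% in Dnmt1 KO.

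CpG density separated the last exons of members. Dense CpGs there stood at 24.7% in control and 6.001% in Dnmt1 KO of days 6 to 11, and sparse ones at 82.9% and 26.1%.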
